A study of Homo sapiens with 17 samples.

Results

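Young L1 elements are the evolutionarily recent members of the LINE-1 family in the human genome, and they were followed here as single loci in senescent fibroblasts. They were taken from the deposited tables as all repeat loci of class LINE, family L1, whose subfamily was L1HS, L1PA2, L1PA3, L1PA4, L1PA5, L1PA6 or L1PA7. This gave 50741 loci among 933333 L1 loci and 4748242 repeat loci, with 1278 L1HS, 6602 L1PA2, 6882 L1PA3, 10182 L1PA4, 10108 L1PA5, 4587 L1PA6 and 11102 L1PA7 loci. The rule uses names and no measured value. Poly(A) RNA had been sequenced from both fragment ends, with strand kept, in 17 libraries of IMR90 ER:RAS, a human lung fibroblast line carrying a retroviral fusion of oncogenic RAS to an oestrogen receptor domain, which 4-hydroxytamoxifen (4OHT) switches on to cause senescence. All libraries therefore carried the fusion and all received an siRNA by reverse transfection 1 day ahead of 4OHT or DMSO, with RNA taken on day 7. The groups were DMSO with non-targeting siRNA (DMSO siNT, n = 5), 4OHT with non-targeting siRNA (4OHT siNT, n = 6) and 4OHT with siRNA against SMARCA4, a catalytic ATPase of SWI/SNF chromatin remodellers (4OHT siSMARCA4, n = 6). In each label a 2 or a 4 follows the siRNA name, read here as siRNA number, which the labels do not spell out, and each group joins both, with 3 and 2 libraries in DMSO siNT and 3 of each in the other groups. SMARCA4 was not knocked down in DMSO cells. The labels do not say whether libraries of a group came from separate cultures, so the p-values measure the spread between these libraries, which may be technical.

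A complete L1 carries an internal promoter at its start, ORF1, which encodes an RNA-binding protein, ORF2, which encodes an endonuclease and reverse transcriptase, and a poly(A) tail. Most copies are truncated at the start and cannot move, and L1HS is the subfamily still active in humans, the L1PA subfamilies being older in the order of their numbers. Copies are normally held silent by DNA methylation, by KRAB zinc-finger proteins with TRIM28 and by the HUSH complex, and L1 expression is known as a late feature of senescent cells that can feed cytosolic DNA sensing. An RNA read on an L1 sequence can come from the L1 promoter, but a poly(A) library also holds intron-retaining and read-through RNA of genes in which the L1 lies, and such RNA is counted on the L1 too.

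The start of full-length loci carries the binding motif of YY1, a zinc-finger protein that sets where L1 transcription begins. The motif was searched as the letters CAAGATGGC, because it marks a locus that retains its own start. Searched on the L1 strand of GRCh38 in the first 60 bases, it was present in 92.7% of full-length L1HS, 88.4% of L1PA2, 76.9% of L1PA3, 69.5% of L1PA4, 68.1% of L1PA5, 64.7% of L1PA6 and 55.7% of L1PA7 loci. Over all full-length loci with a known direction it was present in 73.2% (4737 of 6476), against 3.50% of shorter loci and 0.641% of 35116 windows of the same length that hold a RefSeq gene start, which lies inside the window and not at its first base. A match is a description of the sequence and not a measured binding site.

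Full length was set at 6000 bp or more, and 6494 loci (12.8%) reached it. The share of full-length loci was 24.5% in L1HS and 7.81% in L1PA7. Open reading frames of the size of both ORF1 and ORF2 were found in 140 loci, of which 109 were L1HS and 31 L1PA2. Of all loci, 1198 touched a GENCODE exon, 25805 lay in introns and 23738 lay outside genes. The direction of the L1 could be called from its sequence for 90.4% of loci. Among intronic loci, 8312 ran with their gene (sense) and 13536 against it (antisense), so that sense loci were the minority by number.

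Library totals ranged from 39109479 to 68978119 counts, and repeats took 1.35 to 1.93% of a library. SMARCA4 (ENSG00000127616) checked the labels. On the counts-per-million scale (CPM, scaled by TMM) it was at 268 ± 13.2 (SD, n = 6) in 4OHT siNT and 88.0 ± 22.8 CPM (n = 6) in 4OHT siSMARCA4, or -1.61 on the log2 scale (edgeR SE 0.13, adjusted p 5.14e-07). Of 5 fibroblast markers, all were expressed, from 12.2 CPM for LUM to 10770 CPM for COL1A1 as group means, while COL1A1, COL1A2, PDGFRB and LUM were lower with the knockdown and with 4OHT. Of the epithelial, endothelial and leukocyte markers, CDH5, PTPRC and CD3E stayed under 0.07 CPM in each group mean and EPCAM under 0.9 CPM, whereas KRT18 was at 40.4 to 63.2 CPM and PECAM1 rose from 0.0145 to 0.935 CPM with 4OHT. With siSMARCA4, PECAM1 (-1.43, edgeR adjusted p 0.00460), KRT18 (-0.55, edgeR adjusted p 0.00752) and EPCAM (-0.84, edgeR adjusted p 0.0318) were lower, and EPCAM was lower with 4OHT too (-1.17, edgeR adjusted p 0.000876). Their part in the L1 results was not tested. One library stood apart. DMSO siNT 2-2V held 598 CPM of young L1 where the other 4 DMSO libraries held 346 to 400 CPM, and with 4OHT the sum over all members, 5 of its strata, the shares and subfamilies, and the counts of calls over all members, over loci outside genes and over regulators are also described without it, while other values include it. It was set apart by its high young L1 level, so leaving it out lowers the DMSO side by construction. Calls of a rise gained without it carry a p-value that does not cover this choice. All 4OHT siNT libraries carried the label tag VM, against 3 of 5 DMSO and 3 of 6 siSMARCA4 libraries, and the labels do not say what V and VM mean.

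Counts on young L1 were spread thinly over many loci and heavily on few. Over all libraries, 28681 loci (56.5%) had 0 counts, 9458 had counts in 1 library alone and 518 had counts in every library. Detection was highest for the youngest group, with 0 counts at 32.0% of L1HS and 66.1% of L1PA7 loci. Full-length loci had 0 counts in 15.95% of cases. In total the members held 410768 counts, and 1 locus took 4.38% of them, 10 loci took 18.6% and 100 loci took 44.6%. Within L1HS the leading locus held 5.76% of the counts, against 21.8% in L1PA5 and 16.5% in L1PA3. Reads of near-identical L1HS and L1PA2 copies were shared among loci by the counting program by maximum likelihood, so the value of any such copy is uncertain.

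Place and direction in genes went with the amount of RNA. Intronic sense loci made up 13.97% of the length of the members but 38.6% of their counts, at 11.7 counts per kb summed over all libraries. Intronic antisense loci made up 28.2% of the length and 12.7% of the counts, at 1.91 counts per kb, close to the 1.80 counts per kb of loci outside genes. Exonic loci, which include L1 sequence inside annotated non-coding RNAs and pseudogenes, reached 20.55 counts per kb. Counting was strand-specific, so that host RNA matches the strand of sense loci only. Full-length loci outside genes held 1.43 counts per kb, and the 140 loci with both reading frames open held 4.84 counts per kb and 4100 counts, or 0.998% of the total. These are descriptions with no test, since loci of one library are not replicates.

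**Figure D1:**
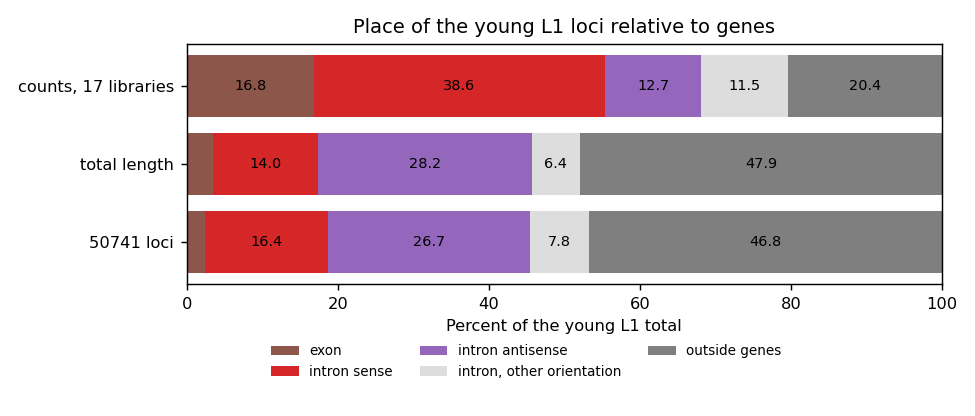
Share of the 50741 young L1 loci, of their total length and of their counts over 17 libraries (percent, bars stacked to 100) by place relative to GENCODE genes. Intronic sense loci are 16.4% of loci and 38.6% of counts, whereas loci outside genes are 46.8% of loci and 20.4% of counts.

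The 5 loci with the highest mean level were 2 L1PA3, 1 L1PA4, 1 L1PA5 and 1 L1PA7. L1PA5 3:98865719-98867452, a fragment of 1734 bp in an intron of DCBLD2 and in its direction, was at 8.31 to 14.5 CPM in DMSO (n = 5), at 19.4, 20.8 and 25.3 CPM (lowest, median, highest; n = 6) in 4OHT siNT and at 22.7, 24.4 and 29.4 CPM in siSMARCA4. It rose with 4OHT without overlap of libraries (0.83 on the log2 scale, edgeR SE 0.13, adjusted p 6.11e-05), and the knockdown value was 0.24 (edgeR adjusted p 0.243). DCBLD2 itself had log2 fold changes of 0.35 and 0.23 in the same contrasts. L1PA3 6:117996320-118002612 overlaps exons of the pseudogene RPL29P4 inside SLC35F1, was at 14.4 to 17.4 CPM as group means and passed neither test. L1PA4 10:50262406-50271004 overlaps exons at ASAH2 and the pseudogene DYNC1I2P1. It fell with 4OHT from 14.4 ± 3.698 (SD, n = 5) to 7.95 ± 2.13 CPM (n = 6), a log2 fold change of -0.86 (edgeR adjusted p 0.000932), and rose with siSMARCA4 to 12.2 ± 1.18 CPM (0.61, edgeR adjusted p 0.0360), although libraries of the groups overlapped in both. L1PA3 8:105789090-105795234, in introns of ZFPM2 and ZFPM2-AS1, rose with 4OHT from 5.71 ± 1.13 to 9.51 ± 1.13 CPM without overlap (0.74, edgeR adjusted p 0.00137).

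L1PA7 8:119109690-119112348 moved in opposite directions with 4OHT and with the knockdown. This fragment of 2659 bp lies outside annotated genes, 1235 bp past the end of COLEC10 on the same strand. It was at 3.54 to 12.1 CPM in DMSO, at 12.5, 15.1 and 24.4 CPM in 4OHT siNT and at 2.42, 4.47 and 6.83 CPM in siSMARCA4, and the 4OHT siNT libraries lay above those of both other groups. The log2 fold change was 1.23 with 4OHT (SE 0.28, edgeR adjusted p 0.00281) and -1.79 with siSMARCA4 (SE 0.27, edgeR adjusted p 0.00268). COLEC10, which encodes a collectin of innate immunity, had 1.32 and -1.62 in the same contrasts. The contrasts share the 4OHT siNT libraries, so that a high level there alone gives opposite signs.

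The contrast of siSMARCA4 with siNT in 4OHT asked whether loss of SMARCA4 raised young L1 RNA in senescent cells. Summed over all members the level was 393, 452 and 483 CPM (lowest, median, highest; n = 6) in 4OHT siNT and 394, 489 and 576 CPM in siSMARCA4. The groups overlapped and the difference of 0.12 on the log2 scale was within the spread (exact 2-sided permutation p 0.195, adjusted 0.386 over 18 tests). With TMM factors from repeats alone it was -0.11. Those factors set the average repeat change near 0, so values on that scale are relative to other repeats. Among the 9 strata in that adjustment, intronic sense loci had the largest difference, from 170 ± 11.8 to 202 ± 33.3 CPM (SD, n = 6 each; 0.24, exact permutation p 0.0411, adjusted 0.205), and loci outside genes had -0.05 (exact permutation p 0.649). With TMM factors from repeats alone these were 0.01 and -0.29, of which the second passed (exact permutation adjusted p 0.985 and 0.0390), and without siSMARCA4 4-2VM the intronic sense loci passed (0.31, exact permutation adjusted p 0.0390). Full-length loci as a whole differed by 0.11 (exact permutation p 0.245), those outside genes by 0.10 (p 0.442 by the same exact test) and the 140 loci with both reading frames open by 0.29 (p 0.123 by the same exact test). Leaving out siSMARCA4 4-2VM, the lowest library of its group for this sum, brought the sum over all members to 0.18 (exact permutation adjusted p 0.0390). It was also the lowest for intronic sense loci. Dropping it raises both differences by construction, and the p-values do not cover that choice.

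**Figure D2:**
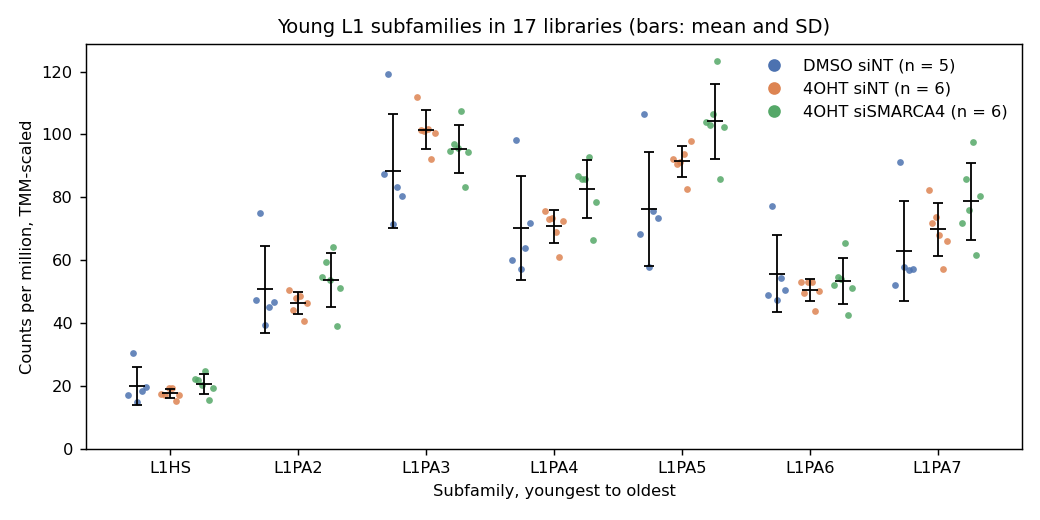
Level of each young L1 subfamily (TMM-scaled CPM, linear axis from 0) in every library, with the mean and SD of each group. The highest DMSO point in each subfamily is library 2-2V, as in L1PA7, where it is at 91.1 CPM against 52.1 to 57.8 CPM in the other 4.

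By subfamily, siSMARCA4 against siNT in 4OHT left all 7 below the threshold. The log2 fold changes were 0.23 for L1HS (SE 0.14, edgeR adjusted p 0.271), 0.21 for L1PA2, -0.09 for L1PA3, 0.23 for L1PA4, 0.19 for L1PA5, 0.08 for L1PA6 and 0.18 for L1PA7. With TMM factors from repeats alone, a scale relative to other repeats, all 7 were at or below -0.01 (median 0.19 against -0.05). None of the 7 had an unadjusted p under 0.05 and DESeq2 called none. Over loci outside genes alone L1PA7 was called lower (-0.71, edgeR adjusted p 0.00728), a sum that includes the falling locus past COLEC10, which alone held 13.1% of all L1PA7 counts, and was not tested without it. The background was 20.4% of 1026 repeat subfamilies called, with a median of 0.25 over all of them and 0.19 over the 7. Of the 123 other L1 subfamilies tested, 71 were called, each higher, with a median of 0.47. The share of young L1 in all L1 counts, which sets them against the rest of the family directly, was 9.48 ± 0.592% in 4OHT siNT and 8.90 ± 0.745% in siSMARCA4 (exact permutation adjusted p 0.222) with all libraries. Without siSMARCA4 4-2V the young share was lower by the test, at -0.85 points (exact permutation adjusted p 0.0289). L1HS was at 15.2, 17.4 and 19.3 CPM in 4OHT siNT and at 15.4, 21.1 and 24.6 CPM in siSMARCA4, overlapping ranges in which 4 of 6 knockdown libraries lay above every control.

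A sum over sparse repeats moved with this contrast too. Repeats of other families that lie more than 50000 bp from any gene and hold at most 20 counts each, 38049 loci in all, rose from 49.8 ± 10.2 to 102 ± 44.7 CPM with siSMARCA4 (SD, n = 6 each; 0.96, exact permutation p 0.00433), and were at 39.1 to 109 CPM in DMSO. Before TMM scaling the 6 libraries of 4OHT siNT, at 30.9 to 61.7 CPM, and the 6 of siSMARCA4, at 62.8 to 182 CPM, did not overlap in it, so this sum and the knockdown cannot be told apart. With this sum as a covariate edgeR called 0 of 464 young L1 loci with siSMARCA4, with 51 at an unadjusted p under 0.05 and a median of 0.04. Such a fit cannot separate the sum from the knockdown, so no part in the L1 results is read from it.

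At single loci, siSMARCA4 against siNT called 29 of the 464 members that passed the filter on low counts (6.25%), 15 higher and 14 lower. Of all 13026 repeat loci tested 6.16% were called, 4.36% higher and 1.80% lower, so that the members were called about as often as repeats in general. Their median was 0.14, as was that of all loci. With TMM factors from repeats alone, and so relative to other repeats, the split was 7 higher and 21 lower. Libraries of siRNA number 2 called 9 on their own, 1 higher and 8 lower, and those of number 4 called 0, with 72 at an unadjusted p under 0.05. A block on the replicate number left 18 calls, 9 in each direction. Without the filter on low counts 15 were called, 8 higher and 7 lower, and 11 of them were among the 29. DESeq2 called 34 of the 1197 it kept, 16 higher and 18 lower. With the sparse repeats as a covariate 0 were called, a fit that cannot tell them from the knockdown. With each library left out in turn the count ran from 11 (without 4OHT siNT 2-1VM) to 33, and it was 19 or fewer without 4OHT siNT 4-1VM, 4-2VM or 4-3VM or siSMARCA4 2-1VM, 2-3V, 2-3VM or 4-2VM. Of the 29, 17 were intronic sense loci, where 11 were higher, out of 214 such loci tested (7.94%). Among 29 L1HS loci edgeR called 0 and gave 4 an unadjusted p under 0.05, and DESeq2 called 0 of the 98 L1HS loci it kept, with 20 at an unadjusted p under 0.05.

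Of 9 called rises without overlap between groups, the 5 largest were all in introns and in the direction of the gene, as were 214 of the 464 members tested. L1PA7 11:10466280-10469757, in AMPD3, which encodes an AMP deaminase, was at 0.165 to 0.534 CPM in DMSO, at 2.51, 3.37 and 4.04 CPM in 4OHT siNT and at 7.35, 8.36 and 12.9 CPM in siSMARCA4, so that the 3 groups followed each other without overlap. Its log2 fold change was 1.53 with siSMARCA4 (SE 0.23, edgeR adjusted p 0.00268) and 3.45 with 4OHT (SE 0.30, edgeR adjusted p 8.66e-08), beside 0.34 and 2.82 for AMPD3. A nearby fragment in AMPD3, L1PA7 11:10470062-10472454, was also called higher with siSMARCA4 without overlap (1.24, edgeR adjusted p 0.006085), so that this gene counts more than once among the rises. L1PA7 11:10465419-10465979, also in AMPD3 and of unknown direction, had 0.17 (edgeR adjusted p 0.871). Of the 5 largest rises, the other 4 stayed under 0.7 CPM. These were L1PA7 8:140902335-140905998 in PTK2 (2.18), L1PA7 15:99665319-99666578 in MEF2A (2.09), L1PA3 5:78579343-78584994 in LHFPL2 (1.96) and L1PA6 8:74015889-74022081 in LY96 (1.75), with edgeR adjusted p of 0.0117, 0.0240, 0.0222 and 0.0383. PTK2, the focal adhesion kinase gene, and MEF2A, a transcription factor gene, had host values of -0.02 and 0.04, so that their loci rose without a change of that size in the gene, whereas LY96, which encodes the co-receptor MD-2 of TLR4, had 1.31. In DMSO the loci in PTK2 and MEF2A were at 0.0741 to 0.657 and 0.0357 to 0.472 CPM, and in 4OHT siNT at 0.0544 to 0.203 and 0.0186 to 0.203 CPM. With siSMARCA4 they were at 0.3005 to 0.666 and 0.272 to 0.536 CPM. Their values with 4OHT were -1.24 and -1.48 (edgeR adjusted p 0.0624 and 0.0466, libraries overlapping). The contrasts share the 4OHT siNT libraries, so that a low level there alone gives opposite signs. The loci in PTK2, MEF2A, LHFPL2 and LY96 needed siSMARCA4 libraries, where they were high, to pass the filter on low counts. Their edgeR adjusted p-values do not cover that entry. For the locus in LY96, full-length and with the YY1 motif at its start, 9 of 17 libraries when left out took the call past 0.05 (edgeR adjusted p 0.0388 to 0.0903). The call was lost 2 times for the locus in MEF2A (up to 0.0584), 1 time for that in LHFPL2 (up to 0.0565) and never for those in AMPD3 and PTK2.

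With 9 rises on the other side and no share over all repeat loci given here, falls with siSMARCA4 without overlap numbered 4. Beside the locus past COLEC10 they were L1PA3 8:118717722-118723854, a full-length locus with the YY1 motif at its start, antisense in the non-coding gene SAMD12-AS1 (-1.90, edgeR adjusted p 0.0240), L1PA3 X:106827828-106830948 at exons of MORC4 and TBC1D8B (-0.75, edgeR adjusted p 0.00972) and L1PA3 4:74245482-74250230, antisense in MTHFD2L (-0.71, edgeR adjusted p 0.0240). The first went from 0.271 ± 0.0830 to 0.0693 ± 0.0434 CPM, the second from 2.25 ± 0.205 to 1.33 ± 0.243 CPM and the third from 2.67 ± 0.455 to 1.63 ± 0.278 CPM (SD, n = 6 each). The SAMD12-AS1 locus needed 4OHT siNT libraries, where it was high, to pass the filter on low counts, and its adjusted p does not cover that entry. With each of 17 libraries left out in turn the call was lost 3 times at the SAMD12-AS1 locus (edgeR adjusted p up to 0.0582), 3 times at the MTHFD2L locus (up to 0.0567) and never at the other 2. Of 10 other alternatives, 2 ended the call past COLEC10, 4 at MORC4 and TBC1D8B, 3 in SAMD12-AS1 and 3 in MTHFD2L. MTHFD2L itself had 0.29, opposite in sign to the antisense L1 in its intron.

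The comparison of 4OHT with DMSO, both with siNT, asked how young L1 RNA changed on the way into senescence. The summed level was 346, 398 and 598 CPM in DMSO (n = 5) and 393, 452 and 483 CPM in 4OHT, a difference of 0.10 that was within the spread (exact permutation p 0.476, adjusted 0.612) and was -0.01 per library total without TMM. Without DMSO siNT 2-2V, the library set apart by this same sum, it was 0.23 (exact permutation adjusted p 0.0429, which does not cover that choice). None of the 9 strata passed after adjustment with all libraries. Loci outside genes went from 82.2 ± 16.5 to 99.1 ± 9.07 CPM (0.28, exact permutation p 0.0455, adjusted 0.205), full-length loci outside genes went from 24.7 ± 6.62 to 31.1 ± 2.20 CPM (0.37, exact permutation p 0.0411, adjusted 0.205) and exonic loci went the other way, from 85.4 ± 12.9 to 71.1 ± 2.42 CPM (-0.25, exact permutation p 0.00433, adjusted 0.0779). Without DMSO siNT 2-2V all 3 passed, at 0.40, 0.51 and -0.17 (exact permutation adjusted p 0.0214, 0.0214 and 0.0343). The exonic sum also passed per library total (-0.36), with TMM factors from repeats alone (-0.36) and without the 10 loci with the most counts (-0.38), each at an exact permutation adjusted p of 0.0390. Without 2-2V, intronic sense loci (0.37) and shorter loci (0.30) passed too, each at an exact permutation adjusted p of 0.0214.

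With all libraries and loci, 4 shares of young L1 RNA passed between DMSO and 4OHT and its sum did not. The sum passed without DMSO siNT 2-2V, and no share passed without the 10 loci with the most counts. Loci outside genes held 18.5 to 20.7% of young L1 counts in DMSO and 21.1 to 23.3% in 4OHT siNT, without overlap (difference 2.63 percentage points, exact permutation p 0.00216, adjusted 0.0173). With siSMARCA4 the share was 19.7 ± 1.71% (difference -2.46 points from 4OHT siNT, exact permutation adjusted p 0.0208), a call that was lost without the 10 loci with the most counts, one of which is the locus past COLEC10 (-0.08 points, exact permutation adjusted p 0.9502). It was also lost among VM libraries alone (-1.61 points, exact permutation adjusted p 0.127) and without 4OHT siNT 2-1VM, 2-2VM or 2-3VM (-2.22, -2.33 and -2.45 points, exact permutation adjusted p 0.0508 each). Sense loci held 72.01 ± 1.71% of intronic counts with a known direction in DMSO and 75.6 ± 1.17% in 4OHT (exact permutation adjusted p 0.0173). Full-length loci held 39.8 ± 1.79% and 36.8 ± 0.743% (exact permutation adjusted p 0.0208) and differed by -0.41 points without the 10 loci with the most counts. The young share of all L1 counts rose from 7.65 ± 1.06% to 9.48 ± 0.592% (SD, n = 5 and 6; exact permutation adjusted p 0.0208). Without the 10 loci with the most counts none of these 4 shares passed, at exact permutation adjusted p of 0.139 for the shares outside genes, sense and of all L1 and 0.819 for full length. Without DMSO siNT 2-2V all 4 passed. All 4 were lost without 4OHT siNT 2-1VM or 2-2VM, the shares of full length and of all L1 also without 2-3VM and the share of all L1 without 4-1VM (exact permutation adjusted p 0.0508 each), while the differences stayed at 1.64 to 1.92, -2.89 to -2.78, 3.59 to 3.85 and 2.39 to 2.50 points for all L1, full length, sense and outside genes. Among VM libraries alone the full-length share did not pass either (0.0952 by the same exact permutation test). Taking genes as protein-coding ones alone ended the calls for the share outside genes (0.94 points, exact permutation adjusted p 0.222) and for the sense share (2.13 points, exact permutation adjusted p 0.169).

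By subfamily, edgeR called 0 of 7 with 4OHT, where 16.9% of 1026 repeat subfamilies were called, and 1 of 7, L1PA5, had an unadjusted p under 0.05. The log2 fold changes were -0.19 for L1HS, -0.13 for L1PA2, 0.20 for L1PA3, 0.01 for L1PA4, 0.26 for L1PA5, -0.14 for L1PA6 and 0.15 for L1PA7, of which L1PA4 changed sign (-0.07) with TMM factors from repeats alone. DESeq2 called 0 of the 7. Over loci outside genes alone L1PA3 (0.65, edgeR adjusted p 0.00194), L1PA4 (0.54, edgeR adjusted p 0.00687) and L1PA7 (0.76, edgeR adjusted p 0.00304) were called higher, with a median of -0.02 over the 7. These sums include L1PA3 9:72450717-72453752 (25 counts in DMSO and 1788 in 4OHT siNT), L1PA4 7:65480281-65486429 (2 and 1871) and the L1PA7 locus past COLEC10 (1836 and 4984), and were not tested without them. Without DMSO siNT 2-2V, L1PA3 (0.30, edgeR adjusted p 0.0128) and L1PA5 (0.38, edgeR adjusted p 0.0115) were called higher and L1HS remained below the threshold. The same pair was called among VM libraries alone, which leave that library out too, and with the label tag as a covariate, which keeps it. With sparse repeats as a covariate L1PA5 alone was called. L1HS was at 14.95 to 30.5 CPM in DMSO and at 15.2 to 19.3 CPM in 4OHT siNT, and without 2-2V its DMSO libraries ended at 19.6 CPM.

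Single loci changed far more than these sums. With 4OHT, 146 of 464 members tested were called by edgeR (31.5%), 76 higher and 70 lower, where 27.4% of all repeat loci were called, 18.1% higher and 9.32% lower. The median of the members was -0.02 and that of all loci 0.16. Without DMSO siNT 2-2V the count was again 146, of 494 tested, but 97 were higher and 49 lower and the median was 0.20. Loci outside genes were called in 37 of 78 cases, 22 higher and 15 lower, and full-length loci outside genes in 16 of 30, 13 higher and 3 lower. Without that library these were 35 of 88, 25 higher and 10 lower, and 16 of 37, 14 higher and 2 lower. The filter on low counts lets a locus silent in DMSO enter through 4OHT libraries alone, and more libraries are 4OHT than DMSO. L1PA4 7:65480281-65486429, with 2 counts in DMSO and 1871 in 4OHT siNT, entered in this way, as did the other rising loci named below. A locus near silent in 4OHT can likewise enter through DMSO libraries alone, as the falling loci named below did. The edgeR adjusted p-values of these named loci do not cover that entry. The split into rises and falls therefore is no measure of direction among the loci tested. Of 29 L1HS loci tested by edgeR none was called and none had an unadjusted p under 0.05, whereas the DESeq2 Wald test called 3 of the 197 L1HS loci it kept, each lower, with 13 at an unadjusted p under 0.05. Over all members DESeq2 kept 2061 loci and called 223, 114 higher and 109 lower, and its share over all repeat loci is not given here.

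**Figure D3:**
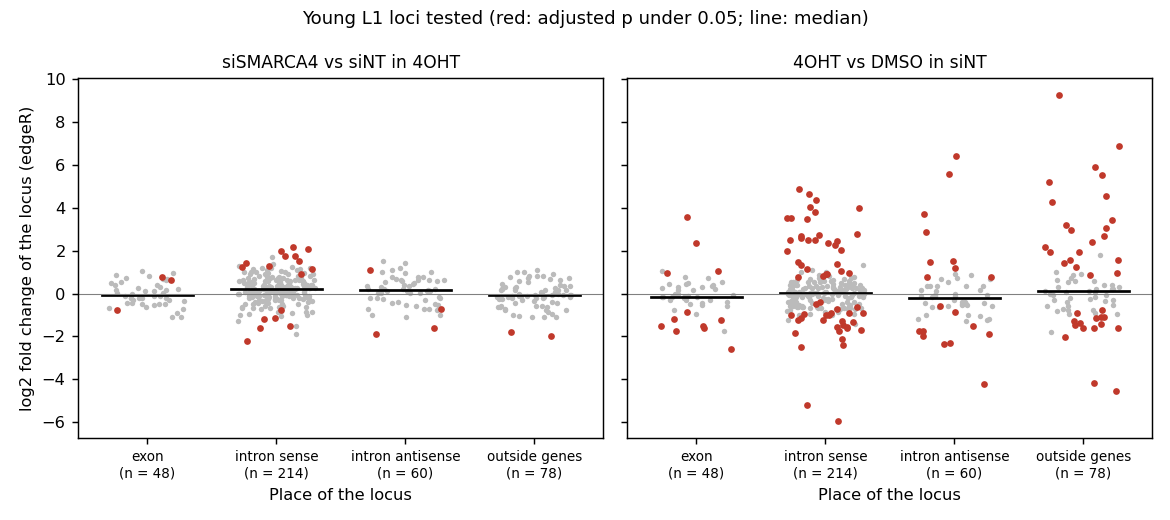
Log2 fold change of each young L1 locus tested (edgeR, linear axis) by place in both contrasts, with calls in red and the median as a line; 64 intronic loci of unknown or mixed direction are not drawn. Called changes with 4OHT reach 9.26 on the log2 scale, while the 29 called changes with siSMARCA4, 3 of them at loci not drawn, lie between -2.19 and 2.18.

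The largest rise with 4OHT was at a full-length element outside genes. L1PA4 7:65480281-65486429, 6149 bp long on the plus strand, lies 16843 bp past the nearest annotated gene, the non-coding gene ENSG00000238124. It carries the YY1 motif at its start, as do most full-length loci of known direction. It held 2 counts over the 5 DMSO libraries and 1871 counts over the 6 of 4OHT siNT, a ratio of 807 with a 95% counting interval of 223 to 6667 (exact binomial, counting error only). In CPM the 4OHT siNT libraries were at 5.08, 5.94 and 7.63 and the siSMARCA4 libraries at 1.503, 4.13 and 5.01, each above every DMSO library (edgeR log2 fold change with 4OHT 9.26, adjusted p 6.62e-11). The siSMARCA4 libraries all lay below those of 4OHT siNT, but that difference did not pass (-0.64, edgeR adjusted p 0.0994). Neither reading frame of ORF1 or ORF2 size was open in it. It alone held 0.773% of all young L1 counts.

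L1PA5 3:154819998-154826090, also full-length and outside genes, begins 926 bp past the end of the non-coding gene ENSG00000243969 on its own strand. It carries the motif too. It had 0 counts in all 5 DMSO libraries and 84 counts in 4OHT siNT, at least 24.2-fold higher with a floor of 3 counts over the group, and lay at 0.218 to 0.344 CPM in 4OHT siNT and 0.207 to 0.419 CPM in siSMARCA4. Among called members without overlap of libraries 59 rose and 39 fell with 4OHT, and the share without overlap over all repeat loci is not given here. The other 3 of the 5 largest rises were L1PA3 fragments. L1PA3 2:33198130-33201640, in an intron of LTBP1, which encodes a latent TGF-beta binding protein, and of unknown direction, went from 0 to 0.0616 CPM in DMSO to 2.67, 3.02 and 4.09 CPM in 4OHT siNT (6.78, edgeR adjusted p 4.28e-10), while LTBP1 had -0.94. L1PA3 5:21840438-21842017, antisense in CDH12, a cadherin gene, went from 0 to 0.0821 CPM to 1.94, 3.75 and 6.37 CPM (6.41, edgeR adjusted p 1.89e-07), and was lower again with siSMARCA4, at 0.588 to 2.37 CPM (-1.58, edgeR adjusted p 0.0237, libraries overlapping). L1PA3 9:72450717-72453752, outside genes, went from 0 to 0.266 CPM to 4.47, 5.81 and 6.98 CPM (5.91, edgeR adjusted p 1.82e-08).

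**Figure D4:**
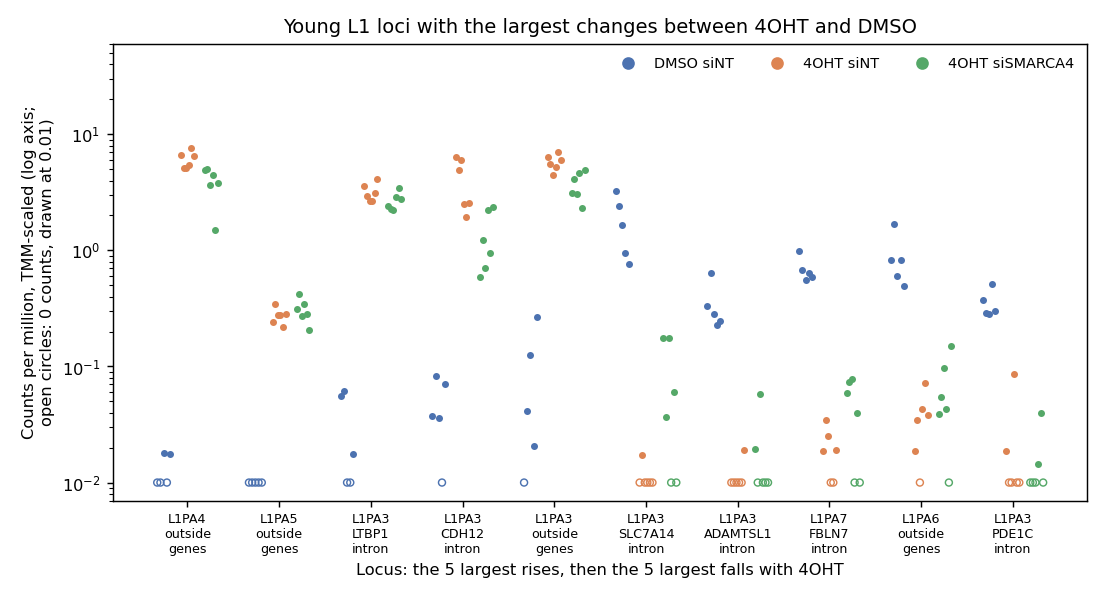
Level in every library (TMM-scaled CPM, log axis, 0 counts as open circles at 0.01) of the 5 strongest rises and the 5 strongest falls among young L1 loci between DMSO and 4OHT. The L1PA4 locus outside genes is at or under 0.0178 CPM in DMSO and at 5.08 to 7.63 CPM in 4OHT siNT.

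Falls with 4OHT were led by loci near silent in senescent cells. L1PA3 3:170567009-170569995, in introns of SLC7A14 and SLC7A14-AS1, held 475 counts in DMSO, at 0.762 to 3.26 CPM, and 1 count in 4OHT siNT, a ratio of 551 with a 95% counting interval of 98.4 to 21800. L1PA3 9:18711237-18717290, full-length with the YY1 motif at its start and sense in ADAMTSL1, went from 90 counts to 1, a ratio of 104 (95% counting interval 18.3 to 4167), and the gene fell by 4.48 on the log2 scale. L1PA7 2:112178293-112180638, sense in FBLN7, went from 0.687 ± 0.172 to 0.0162 ± 0.0138 CPM (-5.21, edgeR adjusted p 2.14e-06), beside -4.88 for FBLN7, which encodes a fibulin. L1PA6 9:88597322-88603650, full-length and also with the motif, lies outside genes and 13048 bp past NXNL2. It went from 0.889 ± 0.467 to 0.0344 ± 0.0244 CPM (-4.55, edgeR adjusted p 3.77e-06), with NXNL2 at -2.81. L1PA3 7:32081884-32088040, full-length without the motif and antisense in PDE1C, a phosphodiesterase gene, had -4.22 (edgeR adjusted p 0.000167) beside -2.54.

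The change of intronic loci was set beside that of the host gene, by direction of the L1. With 4OHT, 189 sense loci in 170 genes had a single host gene that was tested, and the log2 fold change of locus and gene had the same sign in 140 (74.1%), with a Pearson r of 0.83 across loci. For 47 antisense loci in 42 genes the sign was shared in 28 (59.6%) and r was 0.37. With siSMARCA4 the same values were 116 of 189 (61.4%) and 0.45 for sense loci, and 30 of 47 (63.8%) and 0.15 for antisense loci. Of 49 sense loci called with 4OHT, 45 moved as their gene, and of 17 called with siSMARCA4, 15 did. These correlations are across loci that share libraries, scaling and, in part, host genes, and are given without a test. The difference of locus and gene was over 1 on the log2 scale at 20 of 189 sense loci with 4OHT and at 26 with siSMARCA4.

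**Figure D5:**
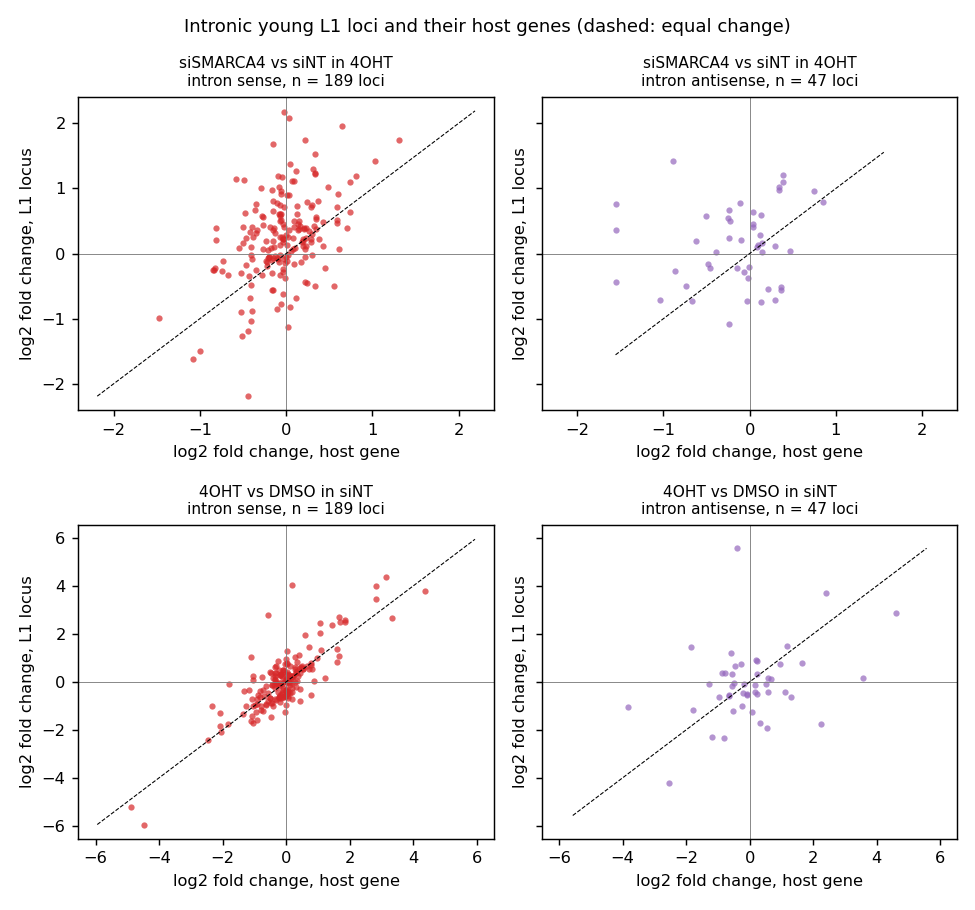
Log2 fold change of intronic young L1 loci (vertical) against that of their host gene (horizontal) for sense (left, n = 189) and antisense (right, n = 47) loci, with siSMARCA4 above and 4OHT below. With 4OHT the sense loci have a Pearson r of 0.83 (Spearman 0.68), and 20 of 189 lie over 1 from the dashed line of equal change. The antisense loci have an r of 0.37 (Spearman 0.27), and 22 of 47 lie over 1 from it.

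Loci outside genes were often close to one. Of 78 tested, 28 (35.9%) lay within 10000 bp past the end of a gene on the same strand. For 17 of these the gene was tested too, and the sign of change was shared by 12 with 4OHT and by 13 with siSMARCA4. The 2 loci outside genes called with siSMARCA4, the one past COLEC10 and L1PA6 6:79577657-79583770 (-1.99, edgeR adjusted p 0.0370, libraries overlapping, chosen after its values were seen), were both within that distance, and 12 of 37 called with 4OHT were.

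Full-length L1HS elements, which include those able to move, were measured at low counts. The 3 with the highest level all lay in introns and against their gene, and each carried the YY1 motif at its start. L1HS 4:79937717-79943746, in ANTXR2 and with both reading frames open, held 1007 counts. It was at 0.892 to 1.69 CPM in DMSO, at 0.397, 0.994 and 1.01 CPM in 4OHT siNT and at 0.681, 1.41 and 1.81 CPM in siSMARCA4, where 5 of 6 libraries were above every 4OHT siNT library. The log2 fold change with siSMARCA4 was 0.67 (SE 0.25, edgeR adjusted p 0.110) and with 4OHT -0.43 (edgeR adjusted p 0.244), beside -0.23 and 0.59 for ANTXR2, the gene on the other strand. L1HS 1:174590324-174596378, in RABGAP1L and also with both frames open, held 398 counts and had 0.46 (edgeR adjusted p 0.597) and -0.17 (edgeR adjusted p 0.837). L1HS 4:79966908-79972932, the other in ANTXR2, held 361 counts, with the ORF1 frame alone open, and had -1.08 (SE 0.74, edgeR adjusted p 0.414) and 0.14 (edgeR adjusted p 0.920). The spread between libraries was wide at the last of these loci, as its SE shows.

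Genes known to restrain or drive L1 were read from the same fit. Of 30 listed, 28 were tested. With siSMARCA4, 4 were called (14.3%), 1 higher and 3 lower, where 24.2% of genes were called, 10.4% higher and 13.8% lower. With 4OHT, 16 were called (57.1%), 5 higher and 11 lower, where 54.4% of genes were called, 27.0% higher and 27.4% lower. Without DMSO siNT 2-2V the second count was 14. The medians of the listed genes were -0.02 and -0.09. The first count moved with single libraries. It was 1 without 4OHT siNT 4-1VM or 4-2VM or siSMARCA4 2-3VM or 4-2VM, 2 without DMSO siNT 2-2V or 2-2VM, 4OHT siNT 2-1VM or 4-3VM or siSMARCA4 2-3V, 7 without DMSO siNT 4-3VM or siSMARCA4 4-3V, and 8 without siSMARCA4 4-2V.

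Among silencing genes, ZNF649, a KRAB zinc-finger gene, was the regulator called lower with siSMARCA4 without overlap, from 4.7 ± 0.246 to 3.84 ± 0.533 CPM (SD, n = 6 each; -0.29, edgeR adjusted p 0.0465). MORC2, an ATPase that works with HUSH (-0.25, edgeR adjusted p 0.0388), and DNMT1, the maintenance DNA methyltransferase (-0.27, edgeR adjusted p 0.0318), were lower with overlapping libraries, and like the other genes given here with overlapping libraries they were chosen after their values were seen. Without 4OHT siNT 4-1VM or 4-2VM or siSMARCA4 2-3VM or 4-2VM, 0 regulators were called lower by edgeR, so that these 3 calls rest on single libraries. With 4OHT, MORC2 rose from 51.2 ± 4.47 to 72.5 ± 5.84 CPM (0.50, edgeR adjusted p 9.84e-05), whereas the HUSH subunit gene PPHLN1 fell by 0.34 (edgeR adjusted p 3.83e-05) and ZNF93, whose protein binds L1PA elements, fell from 3.68 ± 0.461 to 2.00 ± 0.333 CPM (-0.88, edgeR adjusted p 3.70e-05). TASOR, MPHOSPH8, SETDB1 and TRIM28 passed neither test. UHRF1, which guides DNMT1 to replicating DNA, fell with 4OHT from 46.2 ± 7.80 to 16.3 ± 2.00 CPM (-1.50, edgeR adjusted p 1.66e-09), with 16.4 ± 1.68 CPM with siSMARCA4. RB1, the retinoblastoma gene, had 0.19 with siSMARCA4 (edgeR adjusted p 0.110) and -0.09 with 4OHT (edgeR adjusted p 0.416).

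Of 10 restriction genes, 6 were called with 4OHT, 1 higher and 5 lower, near the 54.4% of all genes called. The cytidine deaminase gene APOBEC3B fell from 9.52 ± 1.85 CPM in DMSO (n = 5) to 0.380 ± 0.126 CPM in 4OHT siNT (n = 6; -4.63, edgeR adjusted p 1.03e-11), with 0.675 ± 0.199 CPM in siSMARCA4 (0.81, edgeR adjusted p 0.0176, libraries overlapping). APOBEC3F and APOBEC3G, of the same family, fell by 1.25 (edgeR adjusted p 3.02e-05) and 1.93 (edgeR adjusted p 0.000169). RNASEH2A, the catalytic subunit of RNase H2, fell by 1.98 (edgeR adjusted p 6.22e-10), from 8.38 ± 1.38 to 2.13 ± 0.335 CPM. ADAR, an RNA editing enzyme, rose by 0.52 (edgeR adjusted p 0.000908). TREX1, the cytosolic DNA exonuclease, was at 3.64 ± 0.258, 2.95 ± 0.345 and 2.45 ± 0.484 CPM in DMSO, 4OHT siNT and siSMARCA4, with -0.30 (edgeR adjusted p 0.0666) and -0.27 (edgeR adjusted p 0.147).

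Of the activators, YY1 was lower with 4OHT by 0.19 (edgeR adjusted p 0.0165, libraries overlapping), from 105.5 ± 5.45 to 92.2 ± 4.79 CPM. RUNX3, which binds the L1 promoter, went from 0.00694 ± 0.0155 to 0.237 ± 0.139 CPM with 4OHT (4.66, edgeR adjusted p 2.90e-05), a low level in each group. FOXA1, at 0.113, 0.187 and 0.0868 CPM as group means, and L1TD1, a gene derived from L1 ORF1, were too low to be tested.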

How the data were processed

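RNA of 17 IMR90 ER:RAS libraries was compared. The authors deposited, per library, estimated counts (expected counts written as whole numbers) of read pairs for each gene and each repeat locus, without normalization. Reads had been trimmed with cutadapt 4.7, aligned to GRCh38 with HISAT2 2.2.1 keeping multiple alignments, and assigned by TElocal in reverse-stranded multi mode, which shares multi-mapping pairs among loci by maximum likelihood, so that single young copies are less certain than sums. Members and gene lists were chosen with earlier results of these data known.

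Counts of genes with repeats summed by subfamily, and of genes with repeat loci of 10 or more counts in total, were tested with edgeR 4.0.16 (R 4.3.3). Features were filtered with filterByExpr (minimum count 10, minimum total 15), scaled by TMM and fitted by quasi-likelihood over 3 groups, with Benjamini-Hochberg adjustment over all genes or repeats tested and a threshold of 0.05. Sums and shares, 1 value per library, were compared by exact 2-sided permutation tests. DESeq2 1.42.0 was an alternative. Both contrasts share the 4OHT siNT libraries. The code was tested on simulated data.

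Place came from GENCODE 44, which may differ from the annotation used in counting. Direction came from 12-base words of 139 L1HS loci with an open ORF2 (difference of at least 10, ratio of at least 3). Open frames needed 330 codons for ORF1 and 1270 for ORF2. The YY1 motif was searched in GRCh38 and at RefSeq gene starts using Python 3.11.15 and pysam 0.24.0. The sequences of L1 starts are not reported here. Depth per library is given as total counts, and 95% intervals and the floor of 3 counts cover counting error only.

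Named loci were the 5 with the highest mean level, the 3 full-length L1HS with the highest level and, per contrast, up to 5 rises and 5 falls with the largest change among called loci whose libraries did not overlap. Named regulators were called genes without overlap, and RB1, TREX1 and FOXA1, and those with overlapping libraries, TASOR, MPHOSPH8, SETDB1, TRIM28 and L1TD1 were added after their values were seen. Library numbers are shared across groups, but same-numbered libraries did not deviate together on average (mean r 0.0427 over 32 pairs against -0.0220 over 64 others), so no block was used. That check used the digit before V or VM alone. Single pairs ran from -0.443 to 0.526 with the same number and from -0.520 to 0.599 otherwise, and another pairing was not tested. Alternatives covered scaling, filter, tool, block, label tag, siRNA number, sparse repeats as a covariate, the definitions of full length and gene, leading loci, and each library left out.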

Additional observations from a re-analysis of the deposited data

Results flagged for a closer look

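In 23 of 176 groups of libraries 1 library lay far from the rest by Dixon's test at its 95% critical value, which chance does in about 1 of 20 groups. DMSO siNT 2-2V was the high library in most sums. It held 74.87 CPM of L1PA2 (39.45 to 47.23 in the other 4), 77.28 CPM of L1PA6 (47.39 to 54.45), 91.14 CPM of L1PA7 (52.1 to 57.84) and 597.8 CPM of all members (346.3 to 399.9). It held 360.8 CPM on shorter loci (218.9 to 238.8), 228.8 CPM on intronic sense loci (118.5 to 140.2) and 110.9 CPM on loci outside genes (71.78 to 81.5). It was also high at L1HS 4:79966908-79972932 (1.56 CPM, others 0 to 0.4282), L1PA3 9:18711237-18717290 (0.6365 CPM, others 0.2262 to 0.3336) and L1PA6 9:88597322-88603650 (1.684 CPM, others 0.496 to 0.8341).

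Other libraries stood apart in single quantities. Exonic loci were at 80.67 CPM in siSMARCA4 4-2V (70.98 to 74.42 in the others), and intronic sense loci at 146.3 CPM in 4OHT siNT 4-2VM, below 169.7 to 177 in the others. L1PA5 3:98865719-98867452 was at 25.25 CPM in 4OHT siNT 4-3VM (19.44 to 21.21), L1HS 4:79937717-79943746 at 1.686 CPM in DMSO siNT 4-2VM (0.892 to 1.075) and L1PA3 8:118717722-118723854 at 0.427 CPM in 4OHT siNT 2-1VM (0.2031 to 0.2837).

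The rest were levels near 0. L1PA3 3:170567009-170569995 was at 0.01722 CPM in 4OHT siNT 2-2VM and at 0 in the others. L1PA3 9:18711237-18717290 was at 0.01892 CPM in 4OHT siNT 4-3VM, with 0 in the others, and at 0.05832 CPM in siSMARCA4 2-3VM (0 to 0.01961). L1PA3 7:32081884-32088040 was at 0.08604 CPM in 4OHT siNT 4-1VM (0 to 0.01857) and at 0.04007 CPM in siSMARCA4 4-2VM (0 to 0.01447).

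Among regulator genes, TREX1 was at 4.093 CPM in DMSO siNT 4-3VM (3.465 to 3.594), RNASEH2A at 1.476 CPM in 4OHT siNT 2-1VM (2.117 to 2.404) and RUNX3 at 0.03468 CPM in DMSO siNT 2-2VM, with 0 in the other 4.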

How the results depend on the processing

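Of 1200 comparisons of a single locus, subfamily or stratum with an alternative, 1075 kept direction and side of the threshold, 52 changed sign without passing in either, 22 passed only there, 50 no longer passed and 1 passed in the other direction. Of 301 for the summary counts, sums and shares, 238 kept their side or stayed within 1.5 times, 4 of them with another sign, and 63 did not. Same-numbered libraries did not deviate together on average, but with the replicate number as a block siSMARCA4 called 18 young L1 loci in place of 29 and 2 regulators in place of 4. The block gave 135 loci, 15 regulators and 0 of 7 subfamilies with 4OHT and 0 of 7 with siSMARCA4 (edgeR, 0 with an unadjusted p under 0.05 in both), and left the young L1 summed level at 0.1241 and 0.102. Same-numbered libraries share only a number, so no weaker effect is read from this.

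Further counts of young L1 loci called with siSMARCA4 were 9 and 0 within siRNA number 2 and 4 (the 2 or 4 after the siRNA name, a reading the labels do not spell out) and 0 with sparse repeats as a covariate (edgeR, with 72 and 51 at an unadjusted p under 0.05 beside the counts of 0), 15 without the filter on low counts and 11 to 33 with each library left out. With 4OHT they were 97 and 84 within siRNA number 2 and 4, 228 without the filter, 223 by DESeq2 and 125 to 154 with each library left out. Regulators called with siSMARCA4 were 9 among VM libraries and 1 to 8 with each library left out. Over loci outside genes alone, siSMARCA4 called 1 subfamily, L1PA7, which passed at -0.708 where the value over all loci was positive and had not passed, and 4OHT called 3 (L1PA3, L1PA4, L1PA7). With 4OHT the label tag as a covariate or VM libraries alone gave 2 (L1PA3, L1PA5), sparse repeats as a covariate 1 (L1PA5) and each library left out 0 to 2. In the siSMARCA4 contrast the sparse-repeat covariate did not overlap between the groups, so its fits cannot tell it from the knockdown, and the 9 loci named there kept their sign (1.17 to 1.70 and -1.59 to -0.65). None of the 9 was called in that fit (edgeR adjusted p 0.0736 to 0.463). A test of whether the knockdown change differed between siRNA number 2 and 4 called 0 of 7 subfamilies and 0 of 319 young L1 loci by edgeR, with 0 and 29 at an unadjusted p under 0.05. The causes were not tested.

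The young L1 summed level ran from 0.0712 to 0.1806 with siSMARCA4 and from 0.03495 to 0.2319 with 4OHT, each library left out. Among shares, young L1 of all L1 ran from -0.8476 (without siSMARCA4 4-2V, where it passed) to -0.3851 points with siSMARCA4 and, with 4OHT, from 1.515 to 2.229, and was 1.182 without the 10 loci with the most counts. Full length of young L1 with 4OHT was -0.405 without those loci, -2.643 among VM libraries and -3.697 to -2.555 with each library left out. Sense of oriented intronic young L1 with 4OHT was 2.133 with protein-coding genes alone, 2.238 without the 10 loci and 3.063 to 4.118. Outside genes of young L1 with siSMARCA4 was -0.08401 without the 10 loci, -1.613 among VM libraries and -3.017 to -2.085, and with 4OHT 0.9356 with protein-coding genes alone, 1.912 without the 10 loci and 2.39 to 2.938. Of 50741 loci the filter on low counts kept 464 for edgeR, and DESeq2 kept 2061 with 4OHT and 1197 with siSMARCA4, so most loci have no test.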
